A study of Mus musculus with 12 samples.

Results

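The genes described here are the matrix metalloproteases (MMPs), the ADAMTS proteases, the protease-like ADAMTSL proteins and the tissue inhibitors of metalloproteases (TIMPs). They were chosen by gene symbol alone, as Mmp, Adamts, Adamtsl or Timp followed by a number. That gave 51 of the 26264 genes listed, namely 23 MMP, 19 ADAMTS, 5 ADAMTSL and 4 TIMP genes. Bulk mRNA was sequenced from mouse endometrial epithelial organoids at passage 3, which are cultures grown from sheets of uterine lining epithelium. Organoids of wild type mice (WT) and of Esr1 knockout mice (KO) were left untreated or given estrogen, with 3 libraries for each of these 4 groups and 12 in all. The series title and design text are about the role of Esr1, the gene of estrogen receptor alpha, in the uterine epithelium. The Esr1 allele, the number of organoid lines or animals and the estrogen dose are not given in the sources used here, and the labels' protocol names postnatal days 15, 30 and 60 for the dissection without saying which was used for these libraries. A note in the labels says that organoids of neither genotype responded to estrogen. The labels also do not say whether replicates were separate animals or cultures, so p-values measure only the spread between these libraries.

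MMPs and ADAMTS proteases are zinc enzymes that cut proteins of the extracellular matrix and of the cell surface. They are made as inactive proenzymes, so RNA levels do not give activity. TIMPs block the active site of most MMPs. In the uterus, MMPs are best known for the breakdown and rebuilding of the endometrium, and epithelial cells and stromal cells make different members.

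Library totals ran from 75654191 to 108665407 counted reads. Levels are given as counts per 1e+06 counted reads (CPM), scaled between libraries by the trimmed mean of M values. Esr1 itself was lower in all 6 KO libraries, at 307.7 ± 50.2 CPM (SD, n = 3) in untreated WT against 16.4 ± 0.402 in untreated KO, and at 318 ± 33.5 against 19.7 ± 0.510 with estrogen. Epithelial markers (8 genes) summed to 3945 to 4896 CPM in the WT libraries and 3480 to 4517 in the KO libraries. Several other marker lists differed between the genotypes. Basal epithelial markers (Krt5, Krt14, Krt15 and Trp63) summed to 1.78 to 3.55 CPM in WT and 4137 to 10116 in KO. Multiciliated cell markers (4 genes) summed to 0.0765 to 0.266 CPM in WT and 493 to 934 in KO, and uterine gland markers (4 genes) to 1.04 to 3.91 and 78.7 to 95.4. The gland sum in KO was nearly all Foxa2 (65.5 CPM untreated, 59.6 treated) and Cxcl15 (22.5 and 24.3). Prss28 and Prss29 had 0 reads in WT and at most 10 reads in a KO group. Markers of stromal fibroblasts (10 genes) summed to 2.52 to 5.33 CPM in WT and 6.66 to 11.2 in KO, where Vim made up most of the sum, Hand2 was at most 0.0380 CPM and Lum had 0 reads. Vim was at 0.122 CPM in untreated WT and 6.73 in untreated KO. Of the 10 stromal markers, 6 had a lower mean in untreated KO than in untreated WT and 4 a higher one. Col1a1 was at 0.682 and 0.284 CPM and Col3a1 at 0.620 and 0.278. Immune markers (8 genes) summed to 256 to 474 CPM in WT and 103 to 190 in KO, most of it Cd68, while the pan-leukocyte gene Ptprc was at 0 reads in 4 of 6 KO libraries. Smooth muscle markers (5 genes) summed to 0.166 to 0.947 CPM in WT and 0.902 to 1.37 in KO, endothelial markers (5 genes, Emcn at 0) to 0.728 to 2.86 and 0.654 to 1.05, and mesothelial markers (4 genes, mostly Msln) to 24.7 to 87.0 and 26.9 to 79.7. Their part in the results below was not tested, and in bulk RNA fewer cells of a type and less RNA per cell cannot be told apart.

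Of the 51 genes, 32 had enough reads to be tested. A gene was called when its edgeR quasi-likelihood p, adjusted by the Benjamini-Hochberg method over all 16465 genes tested, was under 0.05. Without estrogen, 26 of the 32 were called between KO and WT, 19 higher and 7 lower in KO. Of all genes tested, 71.7% were called in that comparison, 37.7% higher and 34% lower. With estrogen, 27 of the 32 were called, 20 higher and 7 lower, against 70.8% of all genes, 36.7% higher and 34.1% lower. In both treatments with the same sign, 26 were called, 19 higher and 7 lower, which is 81.2% of those tested beside 64.9% of all genes (34.1% higher, 30.8% lower). The 2 comparisons share no libraries, but the labels do not say that the treated and untreated organoids were separate lines. Counted from here on is a gene called in both treatments.

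The share called was above that of all genes, but 7 of the 32 had to differ to enter the test, as given below. The split between directions was 19 to 7 where that of all genes was nearly even. At a fold of at least 2 in both treatments, 23 of 32 were called (71.9%), 17 higher (53.1%) and 6 lower (18.8%). Of all genes, 35.6% were called at that fold (24.4% higher, 11.2% lower). The median log2 fold change of the 32 tested genes was 1.66 without and 1.63 with estrogen, and that of all genes was 0.04 and 0.02. Setting genes at 0 reads in WT to their lower bounds could not move the members' medians, because these bounds lie far above them. Of the 32, 6 passed the read minimum in the KO libraries only (Adamts12, Adamts15, Adamts17, Mmp8, Mmp12 and Timp4) and 1 in the WT libraries only (Adamts8), so these 7 had to differ to enter the test. Of the 25 that passed in each genotype, 13 (52%) were higher and 6 (24%) lower, beside 28.8% and 33.9% of all genes that did. The medians, the 2-fold counts and the counts of libraries apart are for all 32, with the 7 included. They were not taken for the 25 alone. The 6 KO libraries lay wholly above or wholly below the 6 WT libraries for 25 of the 32 genes, 18 above and 7 below, beside 65% of all genes (34% above, 31% below).

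**Figure D1:**
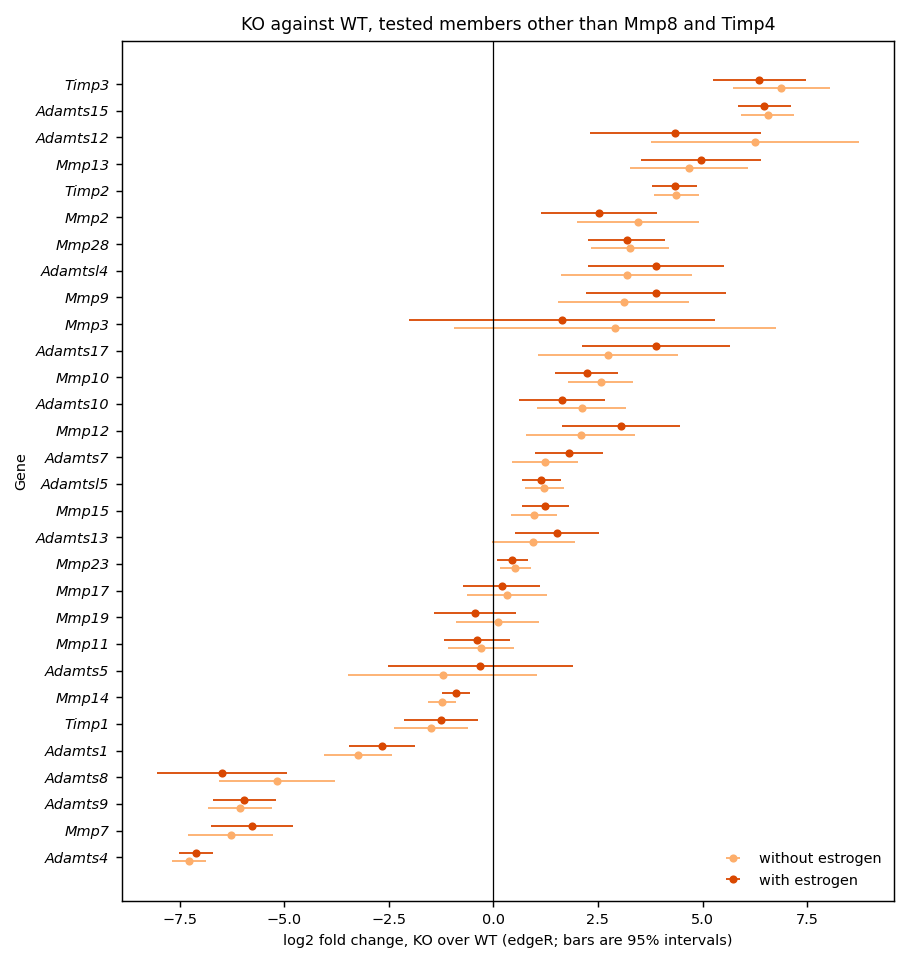
Log2 fold change of KO over WT for 30 tested genes, without estrogen (light points) and with estrogen (dark points), with 95% intervals; the horizontal axis is the log2 fold change and each line is a gene. The intervals of Adamts4, Mmp7, Adamts9, Adamts8, Adamts1, Timp1 and Mmp14 lie below 0 in both treatments, and Mmp8 and Timp4 are not drawn because a WT group has at most 1 read.

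All 4 TIMP genes differed between the genotypes, 3 higher and 1 lower in KO. Timp1, a secreted inhibitor that also binds the proenzyme of Mmp9, was at 14.7, 14.1 and 27.2 CPM in the untreated WT libraries, 30.7, 10.7 and 9.96 in the treated WT libraries, 6.77, 6.33 and 6.76 in untreated KO and 7.03, 7.09 and 7.38 in treated KO. All KO libraries lay below all WT libraries, and untreated WT replicate 3 and treated WT replicate 1 stood above the other WT libraries. KO differed from WT by -1.49 ± 0.402 (SE; n = 3 per group, edgeR adjusted p = 0.00610) on the log2 scale when untreated, and by -1.26 ± 0.398 (edgeR adjusted p = 0.0150) under estrogen. Without treated WT replicate 1 the value with estrogen was -0.53 and no longer called (edgeR adjusted p = 0.0746). With the 2 KO libraries numbered 3 left out it was -1.25 (edgeR adjusted p = 0.0597).

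Timp2, which both inhibits MMPs and bridges Mmp14 to the proenzyme of Mmp2 at the cell surface, went the other way. It was at 8.51, 5.16 and 9.64 CPM in untreated and 5.66, 9.61 and 7.80 in treated WT, and at 154, 156 and 172 in untreated and 142, 161 and 161 in treated KO. The 6 KO libraries were alike and far above every WT library. Timp2 was 20.7-fold higher in KO without estrogen (log2 4.37 ± 0.246, SE, edgeR adjusted p = 6.43e-08) and 20.1-fold higher with it (4.33 ± 0.246, edgeR adjusted p = 7.75e-08).

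Timp3, which stays bound to the matrix and also inhibits ADAMTS and ADAM proteases, was nearly absent from WT. It was at 0.229, 0.162 and 0.394 CPM in untreated and 0.226, 0.533 and 0.563 in treated WT, and at 17.5, 41.0 and 33.9 in untreated and 22, 48.6 and 36.8 in treated KO. Every KO library was above every WT library, and replicate 2 was the highest and replicate 1 the lowest KO library in each treatment. KO differed from WT by 6.88 ± 0.528 (SE; edgeR adjusted p = 6.79e-07) on the log2 scale when untreated, and by 6.35 ± 0.504 (edgeR adjusted p = 9.56e-07) under estrogen. Timp4, an inhibitor with a narrow tissue range, had 0 reads in all 6 WT libraries. It was at 2.79, 7.48 and 3.21 CPM in untreated KO and 1.74, 4.48 and 2.48 in treated KO, again with replicate 2 highest. Against a floor of 3 reads per WT group untreated KO was at least 397-fold higher, and KO under estrogen was at least 259-fold higher. Timp4 lies within the gene Syn2 on the opposite strand, and 1.5% of its exon bases are shared with it, which the counting could not separate by strand.

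**Figure D2:**
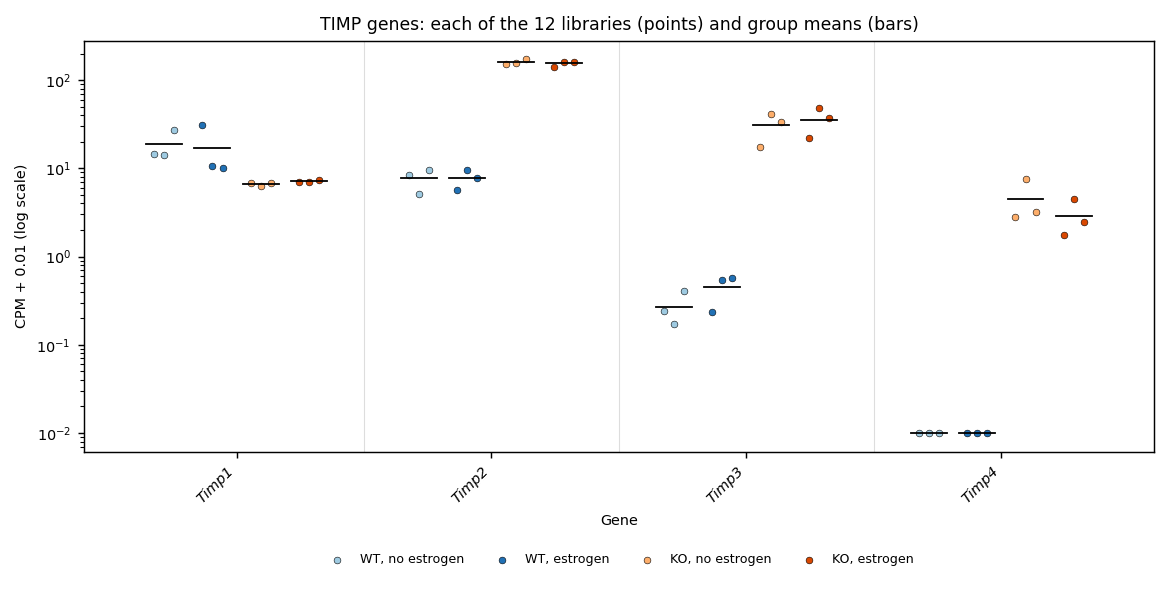
Level of each TIMP gene in each of the 12 libraries (points, coloured by group) with group means (bars), on a log axis of CPM + 0.01. Timp2, Timp3 and Timp4 lie higher in all 6 KO libraries and Timp1 lies lower in all 6.

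Per kilobase of exon, Timp1 was the most abundant TIMP of the WT groups and Timp2 that of the KO groups. Timp1 made up 90.7% of the summed TIMP level (CPM per kb) in untreated WT and 89.9% in treated WT, and Timp2 made up 74.6% in untreated and 72.1% in treated KO. The summed TIMP level was 23.1 ± 8.83 CPM per kb (SD, n = 3) in untreated and 21.4 ± 12.8 in treated WT, and 58.1 ± 4.23 in untreated and 57.8 ± 5.96 in treated KO.

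Among the MMPs, 15 of 23 were tested: KO was higher for 9 and lower for 2, and 4 were not called. The collagenases cut fibrillar collagen. Mmp13, collagenase 3, was at 1.27, 1.89 and 2.50 CPM in untreated and 3.90, 0.847 and 0.834 in treated WT, and at 37.6, 60.1 and 48.4 in untreated and 39.4, 96.8 and 39.0 in treated KO. The lowest KO library was well above the highest WT library, and treated KO replicate 2 stood above the other KO libraries. KO differed from WT by 4.68 ± 0.640 (SE; edgeR adjusted p = 6.02e-05) on the log2 scale when untreated, and by 4.96 ± 0.647 (edgeR adjusted p = 4.43e-05) under estrogen, and the latter was 6.12 without treated WT replicate 1.

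Mmp8, the collagenase best known from neutrophils, had 1 read in the 6 WT libraries together. It was at 15.8, 35.3 and 23.8 CPM in untreated KO and 14.6, 34.8 and 20.5 in treated KO, so its groups were fully apart. The ratio of KO to WT was 6622 without estrogen, with a 95% counting interval of 1188 to 261608 that rests on the single WT read, and at least 2078 with estrogen. Of the myeloid markers, Itgam was at 0.133 CPM in untreated WT and 2.58 in untreated KO, Lyz2 at 0.184 and 1.37, and Csf1r at 31.3 and 0.309. Cd68 was at 282 and 111 CPM, Adgre1 at 0.156 and 0.0531 and Ptprc at 6.41 and 0, so 5 of the 8 immune markers had a lower mean in untreated KO than in untreated WT and 3 a higher one. The part of such cells in Mmp8 was not tested. The other collagenases of the mouse, Mmp1a and Mmp1b, had 0 and 8 reads in all libraries together.

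The gelatinases, which degrade denatured collagen and basement membrane collagen, were low in WT and higher in KO. Mmp2 was at 0.141 ± 0.0701 CPM (SD, n = 3) in untreated WT and 1.54 ± 1.22 in untreated KO (log2 3.45, edgeR adjusted p = 6.78e-04), and at 0.221 ± 0.0868 and 1.27 ± 0.432 with estrogen (2.53, edgeR adjusted p = 0.00375). Mmp9 was at 0.101 ± 0.0357 and 0.875 ± 0.330 CPM without estrogen (3.11, edgeR adjusted p = 0.00214) and at 0.0553 ± 0.0786 and 0.806 ± 0.207 with it (3.88, edgeR adjusted p = 8.11e-04). Both stayed below 3 CPM in every library.

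Of the stromelysins and metalloelastase, 2 of 4 were higher. Mmp10, stromelysin 2, rose from 0.345 ± 0.0542 to 2.04 ± 0.916 CPM without estrogen (log2 2.56, edgeR adjusted p = 5.36e-05) and from 0.427 ± 0.102 to 2.02 ± 0.324 with it (2.24, edgeR adjusted p = 1.34e-04). Mmp12, the elastase best known from macrophages, rose from 0.0774 ± 0.0217 to 0.329 ± 0.123 CPM (2.08, edgeR adjusted p = 0.00791) and from 0.0380 ± 0.0152 to 0.320 ± 0.194 (3.05, edgeR adjusted p = 0.00132). Mmp11, stromelysin 3, was at 2.85 ± 0.985, 3.18 ± 1.05, 2.31 ± 0.814 and 2.41 ± 0.743 CPM in WT without and with estrogen and in KO without and with it. Its WT and KO libraries overlapped, and its log2 fold changes of -0.30 and -0.40 did not pass (edgeR adjusted p = 0.467 and 0.332).

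Mmp3, stromelysin 1, followed the replicate number in KO. It was at 0.612, 0.404 and 0.463 CPM in untreated and 0.329, 1.11 and 0.856 in treated WT, and at 0.240, 0.0457 and 10.8 in untreated and 0.206, 0.144 and 6.76 in treated KO. The KO libraries numbered 3 were the highest of all 12 in both treatments and the other 4 KO libraries were below every WT library. The log2 fold changes of 2.90 and 1.63 did not pass (edgeR adjusted p = 0.155 and 0.394). Without both KO libraries numbered 3 they turned to -1.76 (edgeR adjusted p = 0.0559) and -2.08 (edgeR adjusted p = 0.0266). Of the 10 stromal fibroblast markers, 6 were also highest among KO libraries in replicate 3 of each treatment (Col1a1, Col1a2, Col3a1, Pdgfrb, Hand2 and Thy1). Hand2 rested on 2 reads in untreated and 4 in treated KO. The same order held for 5 of 8 epithelial markers (Epcam, Cdh1, Krt19, Cldn4 and Elf3), 2 of 5 smooth muscle markers and 1 of 8 immune markers. The order alone does not give the size of these differences. Epcam was at 613, 617 and 731 CPM in untreated KO and 668, 767 and 812 in treated KO. Col3a1 was at 0, 0 and 0.833 CPM in untreated KO and 0, 0 and 0.418 in treated KO, beside 0.165 to 1.22 in the WT libraries. The other stromal fibroblast markers did not follow this order. Pdgfra was highest in replicate 2 (1.18, 2.34 and 1.87 CPM without and 1.27, 2.69 and 2.04 with estrogen). Vim was highest in replicate 2 without and in replicate 3 with estrogen. Dcn was at 0 in treated replicate 3 and Lum at 0 in all KO libraries. The sum of the 10 markers, mostly Vim, was 7.26, 10.3 and 11.2 CPM without and 6.66, 8.39 and 9.17 with estrogen, and its part in Mmp3 was not tested.

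Mmp7, matrilysin, is a small MMP without the hemopexin domain that epithelial cells of glands and mucosae are known to secrete. It was at 183, 86.9 and 254 CPM in untreated and 130, 199 and 138 in treated WT, and at 2.85, 1.87 and 2.0 in untreated and 3.38, 3.39 and 1.78 in treated KO. WT libraries spread over a 2.92-fold range and every KO library was far below all of them. In KO, Mmp7 fell by 6.28 ± 0.456 on the log2 scale when untreated (SE; edgeR adjusted p = 4.57e-07) and by 5.77 ± 0.442 under estrogen (edgeR adjusted p = 7.71e-07). Of its exon bases, 11.5% are shared with AV064505, a gene on the opposite strand.

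The membrane-type MMPs act at the cell surface, and the tested members went in different directions. Mmp14, which cleaves collagen and activates the proenzyme of Mmp2, was at 223, 197 and 260 CPM in untreated and 239, 184 and 149 in treated WT, and at 98.8, 88.6 and 102 in untreated and 104, 101 and 105 in treated KO. All KO libraries were below all WT libraries, with a log2 fold change of -1.23 ± 0.153 when untreated (SE; edgeR adjusted p = 2.54e-05) and of -0.89 ± 0.152 under estrogen (edgeR adjusted p = 3.07e-04). Mmp15, its close relative, was at 47.0, 23.5 and 36.6 CPM in untreated and 31.2, 40.6 and 21.4 in treated WT, and at 64.9, 72.8 and 71.4 in untreated and 64.2, 78.6 and 77.3 in treated KO. Here all KO libraries were above all WT libraries, by 0.97 ± 0.251 (SE, edgeR adjusted p = 0.00503) and 1.24 ± 0.253 (edgeR adjusted p = 0.00110) on the log2 scale. Mmp17, which is tied to the membrane by a lipid anchor, was at 0.202 ± 0.0760, 0.244 ± 0.0778, 0.254 ± 0.101 and 0.282 ± 0.0777 CPM in WT without and with estrogen and in KO without and with it, and its log2 fold changes of 0.33 and 0.20 were not called (edgeR adjusted p = 0.511 and 0.677).

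Of the other MMPs, Mmp28 and Mmp23 were higher and Mmp19 was not called. Mmp28, or epilysin, known from skin and other epithelia, was at 0.981, 0.859 and 1.25 CPM in untreated and 1.73, 0.968 and 0.609 in treated WT, and at 14, 7.45 and 8.32 in untreated and 14.2, 7.07 and 8.93 in treated KO. KO libraries were all above WT libraries and replicate 1 was the highest KO library in each treatment. KO differed from WT by 3.27 ± 0.418 (SE; edgeR adjusted p = 3.41e-05) on the log2 scale when untreated, and by 3.18 ± 0.415 (edgeR adjusted p = 4.14e-05) under estrogen. Mmp23, a membrane-anchored MMP, was at 24.2, 22 and 26.1 CPM in untreated and 29.7, 32.1 and 29.8 in treated WT, and at 27.7, 39.6 and 36.6 in untreated and 31.5, 50.6 and 43.2 in treated KO. Its WT and KO libraries overlapped over both treatments. The differences of 0.52 (edgeR adjusted p = 0.0154) and 0.45 (edgeR adjusted p = 0.0305) on the log2 scale were the smallest of the called members. Each was lost when some single libraries were left out: WT replicate 2 or KO replicate 2 without estrogen (edgeR adjusted p = 0.0562 and 0.0642), and WT replicate 1 or 3 or KO replicate 2 or 3 with estrogen (edgeR adjusted p between 0.0642 and 0.138). Mmp19 was at 0.588 ± 0.307, 0.778 ± 0.347, 0.633 ± 0.107 and 0.572 ± 0.131 CPM in WT without and with estrogen and in KO without and with it, and its log2 fold changes of 0.10 and -0.44 did not pass (edgeR adjusted p = 0.849 and 0.392). Of its exon bases, 29% are shared with Gm47093 and Tmem198b together, both on the opposite strand.

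**Figure D3:**
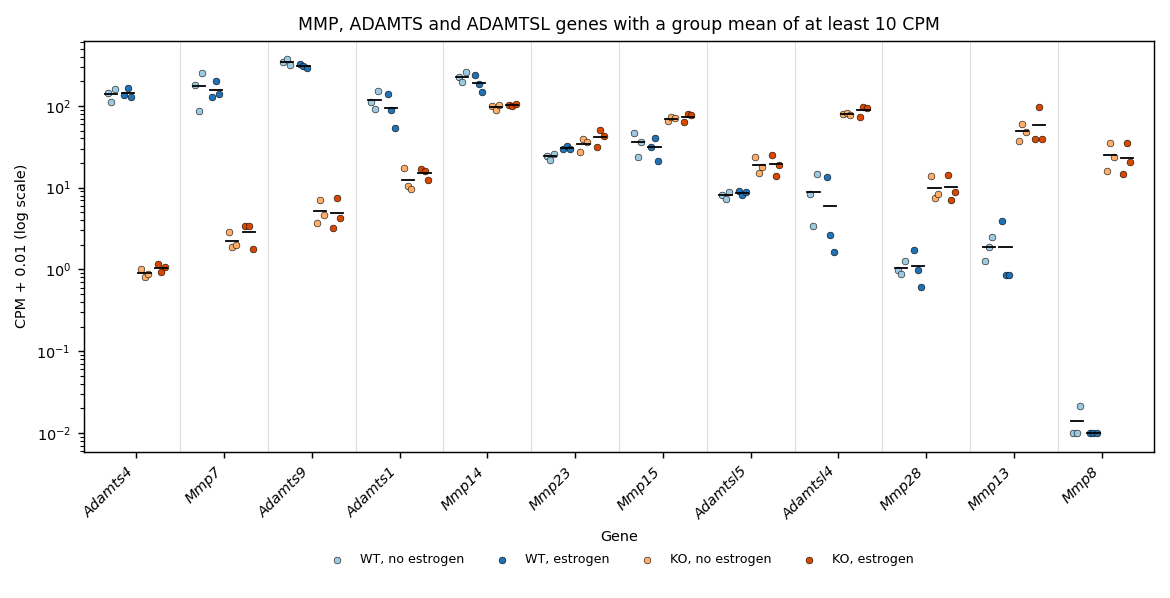
Level in each of the 12 libraries (points, coloured by group) with group means (bars) of the MMP, ADAMTS and ADAMTSL genes that reach a group mean of 10 CPM, on a log axis of CPM + 0.01, ordered by log2 fold change without estrogen. Adamts4, Mmp7, Adamts9, Adamts1 and Mmp14 lie lower in all KO libraries, Mmp23 overlaps between the genotypes, and Mmp15, Adamtsl5, Adamtsl4, Mmp28, Mmp13 and Mmp8 lie higher.

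A run of 10 of the MMP genes lies on chromosome 9, in the order Mmp13, Mmp12, Mmp1b, Mmp3, Mmp1a, Mmp10, Mmp8, Mmp27, Mmp20 and Mmp7 in RefSeq's annotation of the older build GRCm38.p6. Of the 6 tested genes of the run, Mmp13, Mmp12, Mmp10 and Mmp8 were higher in KO, Mmp3 was not called, and Mmp7 at the end of the run was lower. Per kilobase of exon, Mmp7 was the highest gene of the run in WT (163 CPM per kb untreated, 146 treated) and was 2.10 and 2.67 in KO, where Mmp13 led at 18.2 and 21.8 and Mmp8 followed at 10.3 and 9.61.

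**Figure D4:**
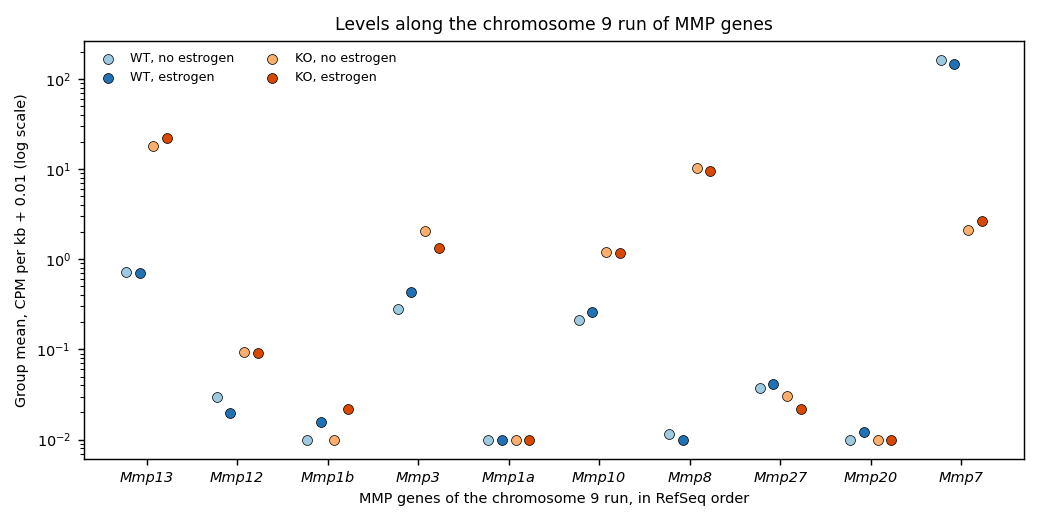
Group mean level (CPM per kb + 0.01, log axis) of the 10 MMP genes of the chromosome 9 run, in RefSeq order, coloured by group. Mmp13, Mmp12, Mmp10 and Mmp8 lie higher in both KO groups than in both WT groups, and Mmp7 lies lower.

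Many MMP promoters are known to hold a site for AP-1, a dimer of Fos and Jun proteins, close to the start of transcription. The 250 bases upstream of a start were available for 36 of the 51 genes, from RefSeq on GRCm38.p6, and were searched on both strands for TGANTCA, an AP-1 site. It was found in 8 of the 36 genes, all in the chromosome 9 run. That is 8 of the 10 genes of the run and 0 of the other 26, beside 2217 of all 32851 promoters of that length (6.749%). A gene was counted if any of its listed starts had a match, while the shares of all are of single promoters. Mmp7 and Mmp12 each also have a listed start without a match. The consensus estrogen response element was found upstream of 0 of the 36 on either strand, beside 21 of all promoters (0.064%). A match describes the letters only and says nothing of binding in these organoids. The 4 upstream sequences below are shown because the match stands before genes that were higher in KO (Mmp13 and Mmp10) and before the gene that was lower (Mmp7), and is missing before another that was higher (Mmp8). All are on the + strand of GRCm38.p6, written 5′ to 3′ and ending at the base before the start, with the AP-1 match in capitals.
Mmp13 (chr9:7272264-7272513): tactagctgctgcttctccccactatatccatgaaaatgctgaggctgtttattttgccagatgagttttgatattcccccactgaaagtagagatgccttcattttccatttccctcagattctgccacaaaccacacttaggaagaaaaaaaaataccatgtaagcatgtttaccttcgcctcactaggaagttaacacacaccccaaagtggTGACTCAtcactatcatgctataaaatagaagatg
Mmp10 (chr9:7502092-7502341): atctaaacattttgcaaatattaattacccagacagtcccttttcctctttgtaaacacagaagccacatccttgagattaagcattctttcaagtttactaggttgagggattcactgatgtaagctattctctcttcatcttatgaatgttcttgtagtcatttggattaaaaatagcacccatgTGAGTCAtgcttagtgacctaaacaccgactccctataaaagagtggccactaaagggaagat
Mmp8 (chr9:7558179-7558428): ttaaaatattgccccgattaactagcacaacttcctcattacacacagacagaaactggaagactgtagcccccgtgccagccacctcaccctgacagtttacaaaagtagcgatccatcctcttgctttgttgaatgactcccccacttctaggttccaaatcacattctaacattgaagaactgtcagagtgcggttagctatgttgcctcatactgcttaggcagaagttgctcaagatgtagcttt
Mmp7 (chr9:7691840-7692089): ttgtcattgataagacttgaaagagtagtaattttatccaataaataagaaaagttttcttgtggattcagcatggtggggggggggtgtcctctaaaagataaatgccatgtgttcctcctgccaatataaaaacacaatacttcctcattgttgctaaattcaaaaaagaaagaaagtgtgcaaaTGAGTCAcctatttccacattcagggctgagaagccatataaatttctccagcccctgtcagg
The match lies 35 to 29 bases before the start of Mmp13, which was higher in KO, and 63 to 57 bases before those of Mmp10, which was higher, and of Mmp7, which was lower. Mmp7 has another listed start with no match, and Mmp8, higher in KO, has no match in this window.

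Of the ADAMTS proteases, 11 of 19 were tested: KO was higher for 5 and lower for 4, and 2 were not called. The proteoglycan-cleaving members cut aggrecan, versican and related proteins, and 4 of the 6 tested were lower. Adamts9 was at 343, 370 and 314 CPM in untreated and 322, 310 and 292 in treated WT, and at 3.74, 7.03 and 4.63 in untreated and 3.16, 7.43 and 4.28 in treated KO. WT libraries were alike, and each KO library was far below any of them. In KO it fell by 6.06 ± 0.342 (SE, edgeR adjusted p = 6.78e-08) and by 5.96 ± 0.339 (edgeR adjusted p = 8.34e-08) on the log2 scale, a 66.6-fold and a 62.1-fold difference.

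Adamts4, aggrecanase 1, had the smallest p of the 51 genes. It was at 143, 113 and 160 CPM in untreated and 138, 168 and 128 in treated WT, and at 1.01, 0.788 and 0.878 in untreated and 1.14, 0.920 and 1.06 in treated KO. It was 155-fold lower without (log2 -7.28 ± 0.189, SE, edgeR adjusted p = 7.30e-10) and 138-fold lower with estrogen (-7.11 ± 0.185, edgeR adjusted p = 9.28e-10). Adamts1, a protease known for a role in ovulation that cleaves versican, was at 111, 91.5 and 153 CPM in untreated and 141, 89.9 and 53.2 in treated WT, and at 17.4, 10.4 and 9.73 in untreated and 16.7, 16.1 and 12.4 in treated KO. KO libraries were all below WT libraries, by 3.25 ± 0.368 (SE, edgeR adjusted p = 1.43e-05) and 2.66 ± 0.358 (edgeR adjusted p = 5.75e-05) on the log2 scale.

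Adamts8 was low in WT, at 2.13 ± 0.802 CPM (SD, n = 3) untreated and 1.74 ± 0.822 treated, and lower still in KO at 0.0572 ± 0.0294 and 0.0178 ± 0.0172 (log2 -5.17 and -6.49, edgeR adjusted p = 2.09e-05 and 9.39e-06). Adamts15 went the other way, from 0.0544 ± 0.0193 and 0.0517 ± 0.00879 CPM in WT to 5.17 ± 0.861 and 4.74 ± 0.753 in KO (log2 6.56 and 6.48, edgeR adjusted p = 1.04e-08 and 1.26e-08). Adamts5, aggrecanase 2, was at 3.77 ± 3.61, 3.09 ± 4.13, 1.62 ± 0.615 and 2.50 ± 1.90 CPM in WT without and with estrogen and in KO without and with it and was not called (edgeR adjusted p = 0.302 and 0.793). Its WT spread came from untreated replicate 3 and treated replicate 1, at 7.89 and 7.84 CPM, while the other WT libraries were at 0.361 to 2.26.

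The other tested ADAMTS genes stayed below 3 CPM in every library. Adamts7 and Adamts12, which cleave cartilage oligomeric matrix protein, were both higher. Adamts7 was at 0.605 ± 0.239 and 0.527 ± 0.185 CPM in WT and 1.42 ± 0.424 and 1.84 ± 0.375 in KO (log2 1.23 and 1.81, edgeR adjusted p = 0.00980 and 9.77e-04). Adamts12 was at 0.00674 ± 0.0117 and 0.0274 ± 0.0475 CPM in WT and 0.674 ± 0.222 and 0.619 ± 0.340 in KO; its untreated ratio was 89.4 with a counting interval of 24.4 to 744 from 2 WT reads, and its treated log2 fold change was 4.35 (edgeR adjusted p = 0.00147). Adamts10 and Adamts17, which are linked to fibrillin microfibrils, also rose. Adamts10 was at 0.140 ± 0.0561 and 0.206 ± 0.118 CPM in WT and 0.615 ± 0.113 and 0.648 ± 0.177 in KO (2.11 and 1.63, edgeR adjusted p = 0.00235 and 0.00840). Adamts17 was at 0.0367 ± 0.0349 and 0.0212 ± 0.0206 CPM in WT and 0.260 ± 0.106 and 0.347 ± 0.101 in KO (2.75 and 3.89, edgeR adjusted p = 0.00702 and 0.00116). Adamts13, which cuts von Willebrand factor, was at 0.605 ± 0.386, 0.449 ± 0.226, 1.17 ± 0.141 and 1.29 ± 0.0800 CPM in WT without and with estrogen and in KO without and with it. It was called with estrogen (1.52, edgeR adjusted p = 0.0115) and not without (0.96, edgeR adjusted p = 0.0780), while the difference between treatments did not pass (interaction 0.56, edgeR adjusted p = 0.97).

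The ADAMTSL proteins share the ADAMTS ancillary domains but lack the protease domain, and the 2 of 5 that were tested were both higher. Adamtsl4, which binds fibrillin, was at 8.33, 3.42 and 14.8 CPM in untreated and 13.5, 2.66 and 1.63 in treated WT, and at 80.4, 82.7 and 77.4 in untreated and 74.0, 96.5 and 94.6 in treated KO. KO libraries were alike while WT libraries spanned a 9.04-fold range, with untreated replicate 3 and treated replicate 1 highest. KO differed from WT by 3.18 ± 0.712 (SE; edgeR adjusted p = 0.00203) on the log2 scale when untreated, and by 3.89 ± 0.737 (edgeR adjusted p = 6.86e-04) under estrogen, and 3.78 and 5.36 without those WT libraries. DESeq2 gave like values (3.23 and 3.95) but no p for Adamtsl4 in either treatment, so this call rests on edgeR. Adamtsl5 was at 8.19, 7.35 and 8.82 CPM in untreated and 9.02, 8.23 and 8.85 in treated WT, and at 23.7, 15.2 and 17.8 in untreated and 25.3, 13.8 and 18.7 in treated KO. Every KO library was above every WT library, by 1.22 ± 0.213 (SE, edgeR adjusted p = 3.46e-04) and 1.15 ± 0.213 (edgeR adjusted p = 5.50e-04) on the log2 scale.

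The 19 genes that were not tested had few reads. Mmp1a and Adamts19 had 0 reads in the 12 libraries. The others, by total reads over the 12 libraries, were Adamts14 with 77, Mmp24 with 59, Adamts2 and Adamts6 with 50 each, Adamts16 with 46, Mmp27 with 42, Adamtsl3 with 38, Mmp16 with 32, Mmp25 with 22, Mmp21 with 15, Adamts3 with 14, Adamtsl1 with 10, Mmp1b with 8, Adamtsl2 with 6, and Adamts18, Adamts20 and Mmp20 with 2 each. All 3 procollagen N-proteinases (Adamts2, Adamts3 and Adamts14), which trim fibrillar procollagens, are in this group. With no minimum on reads, Adamts14, Adamts16 and Adamtsl3 were also called higher in KO in both treatments. Mmp25 was called higher without estrogen only (0 reads in WT and 16 in KO, edgeR adjusted p = 0.0202). Adamts3 was called higher with estrogen only (0 and 12 reads, edgeR adjusted p = 0.0491). No member was called for the interaction in that fit, so a difference between treatments was not shown for either gene. The other untested genes were not called at this depth.

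Summed over each family per kilobase of exon, the order of the leading genes differed between the genotypes. The ADAMTS sum was 97.0 ± 8.21 CPM per kb (SD, n = 3) in untreated WT and 88.9 ± 12.8 in treated WT, led by Adamts9, Adamts4 and Adamts1, and 5.18 ± 0.879 and 5.83 ± 0.850 in KO, led by Adamts1. The MMP sum was 244 ± 89.5 and 222 ± 36.8 CPM per kb in WT, of which Mmp7 made up 66.9% and 65.6% and Mmp14 22.2% and 20.5%. In KO the MMP sum was 99.4 ± 12.7 and 109.4 ± 22.7 CPM per kb, shared among Mmp23 (24.1 and 29.1), Mmp14 (23.1 and 24.6) and Mmp13 (18.2 and 21.8). The ADAMTSL sum was 6.01 ± 1.75 and 5.56 ± 1.76 CPM per kb in WT, led by Adamtsl5, and 28.8 ± 2.0 and 31.0 ± 1.10 in KO, led by Adamtsl4. The summed TIMP level divided by the summed MMP and ADAMTS level was 0.0675 ± 0.0119 and 0.0695 ± 0.0414 in WT and 0.557 ± 0.0308 and 0.509 ± 0.0567 in KO. This is a ratio of RNA levels, given without a test, and it does not give the inhibition of either protease family.

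Estrogen against none gave 0 called members in WT, in KO and for the interaction of genotype and estrogen with edgeR, beside 0% of all genes in each. At an unadjusted p under 0.05 there were also 0 members in each, beside 5.36% of all genes in WT, 2.5% in KO and 4.41% for the interaction. These counts depend on treated WT replicate 1: without it, 6 of 34 members were under 0.05 unadjusted in WT and the same 6 for the interaction (Adamts1, Adamts5, Adamtsl4, Mmp13, Mmp14 and Timp1), beside 10.5% and 8.17% of all genes. In WT all 6 had negative log2 differences in that fit, the smallest p being 0.00236 for Adamtsl4 (log2 -2.04), and none passed (edgeR adjusted p between 0.172 and 0.461), while 54 and 6 of all genes did. DESeq2 likewise called 0 members in each and 63, 20 and 25 of all genes, with 0, 1 and 0 members at its own unadjusted p under 0.05. The smallest unadjusted edgeR p of a member was 0.0657 in WT, for Mmp23 (log2 0.34, 95% interval -0.03 to 0.71, adjusted p = 0.947), and 0.0946 in KO, for Adamts8 (-1.61, -3.54 to 0.33, adjusted p = 1). Replicate numbers were shared between the KO treatments in their deviations, and with replicate as a block within genotype Mmp23 in KO had a log2 difference of 0.26 with an unadjusted p of 0.0157 and Timp4 of -0.60 with 0.0272, both with an edgeR adjusted p of 1.

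The width of the intervals sets what these libraries could show of estrogen. For Timp2 the 95% interval of the log2 difference was -0.50 to 0.47 in WT and -0.52 to 0.41 in KO, for Mmp14 -0.58 to 0.08 and -0.24 to 0.43, and for Adamts4 -0.24 to 0.36 and -0.16 to 0.61. For the genes with more spread it was wide: -2.06 to 0.93 in WT and -1.29 to 1.58 in KO for Adamtsl4, and -1.34 to 1.31 and -0.92 to 1.45 for Mmp13. A p that misses the threshold does not show that treated and untreated organoids were alike.

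**Figure D5:**
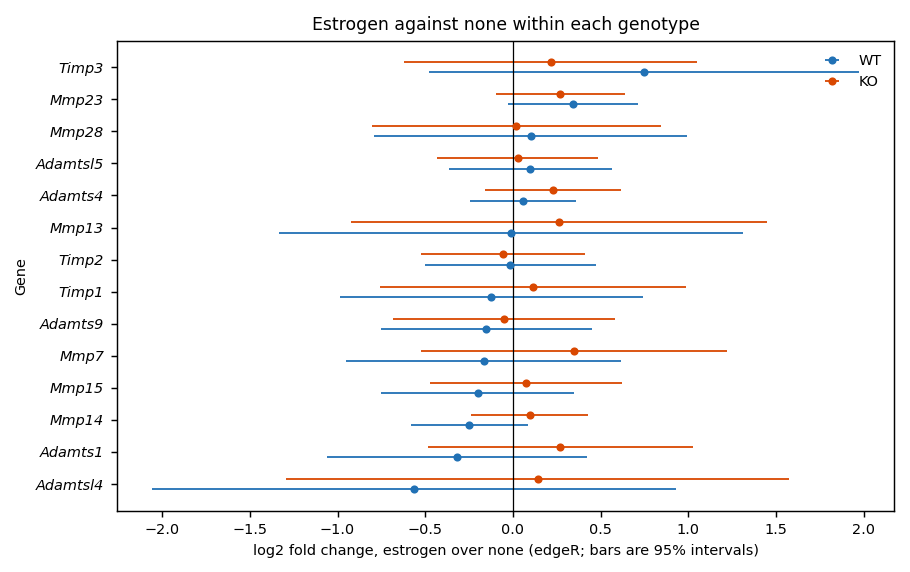
Log2 fold change of estrogen over none in WT and in KO for the genes described in every library other than Mmp8, Timp4 and Mmp3, with 95% intervals; the horizontal axis is the log2 fold change and each line is a gene. Every interval includes 0, and those of Adamtsl4 and Mmp13 are wide.

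Libraries of a genotype also differed among themselves in ways that several members shared. In WT, untreated replicate 3 and treated replicate 1 were the highest in their groups for Adamtsl4, Timp1, Adamts1, Adamts5, Mmp14, Mmp13 and Mmp28. The same held for Adamtsl5, Mmp11, Mmp17 and Adamts13. In KO, replicate 2 was the highest library in each treatment for Mmp8, Timp3, Timp4, Mmp13, Mmp23, Adamts9, Adamtsl4 and Mmp15. It was so too for Adamts5, Adamts12, Adamts15 and Mmp11. Replicate 1 was highest in each treatment for Mmp28, Adamtsl5, Adamts1, Adamts4, Adamts7, Adamts10 and Adamts13, and replicate 3 for Mmp3, Mmp10 and Mmp17. Marker sums moved with the KO replicate number as well. Basal epithelial markers summed to 9949, 5356 and 7216 CPM in untreated and 10116, 4137 and 7145 in treated KO, so replicate 1 was highest and replicate 2 lowest. Multiciliated markers summed to 577, 934 and 697 CPM in untreated and 493, 769.8 and 556 in treated KO, with replicate 2 highest and replicate 1 lowest. The part of these cell types in the members named was not tested. The largest ratios of highest to lowest library among the genes given in every library, other than Mmp3, were 9.04 for Adamtsl4 in WT and 4.31 for Timp4 in KO.

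Other genes that act in matrix proteolysis (35 genes, 28 tested) had 7 members higher and 8 lower in KO, beside 13 with no call. Of all genes tested, 34.1% were higher and 30.8% lower in both treatments. The list had median log2 fold changes of -0.01 and 0.07, beside 0.04 and 0.02 for all genes. Plat, tissue plasminogen activator, had log2 fold changes of -3.45 and -2.46 with WT and KO libraries that overlapped (edgeR adjusted p = 0.00409 and 0.0202), and Ctsb, the lysosomal protease cathepsin B, of -3.64 and -3.48 (edgeR adjusted p = 4.75e-08 and 7.25e-08). Papln, a relative of the ADAMTSL proteins, had -5.25 and -5.56 (edgeR adjusted p = 1.87e-06 and 1.37e-06), and Pcsk6, a proprotein convertase, -3.43 and -3.62 (edgeR adjusted p = 3.20e-08 and 2.81e-08). Higher in KO were Serpine2, a secreted inhibitor of plasminogen activators (4.47 and 3.64, edgeR adjusted p = 6.98e-07 and 2.58e-06), and Lrp1, the receptor that clears many proteases bound to their inhibitors (4.06 and 4.63, edgeR adjusted p = 2.08e-07 and 1.08e-07). Serpinb2, an inhibitor of plasminogen activators, was at 0.0230 and 0.0144 CPM in WT and 87.0 and 81.4 in KO. The metalloprotease gene Mep1a had 0 reads in WT and 0.378 and 0.229 CPM in KO.

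Genes of known substrates and partners (29 genes, 24 tested) had 10 members higher and 6 lower in KO, beside 8 with no call. The shares of all genes tested were 34.1% higher and 30.8% lower in both treatments. Median log2 fold changes were 0.03 and -0.34, beside 0.04 and 0.02 for all genes. Thbs1, thrombospondin 1, had log2 fold changes of -4.71 and -4.29 (edgeR adjusted p = 1.16e-06 and 2.15e-06), Fn1, fibronectin, of -4.47 and -4.08 (edgeR adjusted p = 9.89e-05 and 1.80e-04), and Lama1, a laminin chain of the basement membrane, of -4.15 and -3.30 (edgeR adjusted p = 6.52e-04 and 0.00235). Sdc1, the cell surface proteoglycan syndecan 1, rose by 3.89 and 3.78 on the log2 scale (edgeR adjusted p = 7.93e-08 and 1.08e-07), and Tnc, tenascin C, by 7.82 and 8.17 (edgeR adjusted p = 5.90e-07 and 6.22e-07). Eln, elastin, had 0 reads in WT and 5.58 ± 1.19 and 5.08 ± 0.893 CPM (SD, n = 3) in KO, and Ncan, a proteoglycan of the aggrecan family, was at 0.0212 and 0 CPM in WT and 2.60 and 1.87 in KO.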

How the data were processed

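Bulk RNA libraries from 12 organoid samples, 3 per group, were read from the deposited count files, 1 per library. The deposited values are raw counts of reads. Per the file headers, featureCounts 2.0.0 counted reads over refGene exons by gene symbol, ignoring strand, taking each mate singly and dropping reads that mapped to several places or genes; the submitters' processing notes name STAR 2.7.10b, build GRCm39, featureCounts 2.0.3, Trim Galore 0.6.6 and FastQC 0.11.7. Reads of overlapping genes on opposite strands can thus be lost or mixed: in GENCODE M21, 10 of the 51 members share exon bases with a gene on the opposite strand (29% for Mmp19, 14.8% for Mmp24, 13.5% for Adamts8, 12.3% for Mmp28, 11.5% for Mmp7, 10.8% for Mmp1b, 7.4% for Adamts9, 3.9% for Mmp12, 2.1% for Adamts7 and 1.5% for Timp4).

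The filter was filterByExpr of edgeR 4.0.16 (R 4.3.3; minimum count 10, minimum total 15), which left 16465 genes. Counts were scaled by TMM and fitted in 1 quasi-likelihood model with robust estimates and 4 group means. Tests were two-sided and adjusted over all genes by Benjamini-Hochberg at 0.05. The standard error was derived from the log2 fold change and its F statistic. Group spread is SD. Exon lengths came from GENCODE M21. Folds against a group with 0 reads use a floor of 3 reads per group (0.0114 CPM in untreated WT and 0.0112 in treated WT); with 1 to 3 reads an exact 95% counting interval is given. Both cover counting error only. The code was tested on simulated data.

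Members were chosen by symbol. Values in every library are given for TIMPs and for members with a group mean of at least 10 CPM, and also for Mmp3, added after its values were seen; other tested members have group means, and untested members their total reads. From the lists of other genes, the 4 highest and 4 lowest called were picked, of which 1 is not reported here. Members and lists were chosen with earlier results of these data known. Same-numbered libraries correlated in their deviations from the group means by 0.57, 0.50 and 0.41 in KO, -0.16, -0.16 and -0.39 in WT, and near 0 across genotypes, so the numbers pair only the KO libraries. WT libraries also correlated under unequal numbers (untreated 2 with treated 3 by 0.46, untreated 3 with treated 1 by 0.40, untreated 1 with treated 2 by 0.27); no label pairs these and they were not blocked. Alternatives were DESeq2 1.42.0, library size scaling, other count filters, fitting only the groups compared, replicate blocks and leaving out libraries.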

Additional observations from a re-analysis of the deposited data

How the results depend on the processing

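The count of members called in both treatments was 26, between 21 (at least 1 CPM in 3 libraries, where only 25 members were tested) and 29 (no count filter), and 24 to 29 when libraries were left out. No direction reversed among the called members given in every library. The directions of the other called members were not followed by setting. With the replicate block the counts were 26 without estrogen, 27 with estrogen and 26 in both, with the same 26 genes, so the block changed no call between genotypes. Library size scaling moved the median log2 fold change of all genes by 0.23 without and 0.19 with estrogen, kept all 26 and added Adamts13. DESeq2 gave 26, with Adamts13 in and Adamtsl4 left without a p. Estrogen and interaction calls were 0 members under each setting run.

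Mmp3, which was not called, changed sign: leaving out single libraries gave log2 fold changes of -1.78 to 3.48 without and -2.10 to 2.19 with estrogen, the lowest without the KO library numbered 3, and the replicate block gave -0.45 with estrogen. Without both KO libraries numbered 3, an alternative chosen after seeing the data, it was -1.76 and -2.08, and Mmp23 (0.50 and 0.46) and Timp1 with estrogen (-1.25) were no longer called. Depth limits the 19 untested members.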
